A study of Homo sapiens with 2 samples.

Results

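The genes of the proteasome, its regulators and its dedicated assembly factors were taken as all gene symbols of the count table made of PSM, 1 letter from A to G and a number. The pattern found 48 of 19927 symbols, and all 48 have a RefSeq gene. Look-alike symbols such as PSMC3IP, a recombination factor, and PSME3IP1 do not match the pattern. Huh7 cells, a cultured line from a human liver carcinoma, had been kept for 48 h after attachment in medium with either the solvent DMSO or homochlorcyclizine dihydrochloride, an antihistamine, at a dose not given in the sources used here. Poly(A) RNA of 1 DMSO and 1 homochlorcyclizine library was sequenced. With 1 library per condition there is no replicate check and no test, every difference is a difference between these libraries, and the intervals below are exact 95% intervals that cover counting error only.

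The proteasome degrades proteins that carry ubiquitin chains. Its 20S core is a barrel of alpha and beta rings with the cutting sites inside. A 19S cap binds the ubiquitin chain, removes it and, with a ring of ATPases, unfolds the protein and threads it into the barrel. Core and cap together form the 26S particle. Interferon-induced cells exchange the standard cutting subunits for those of the immunoproteasome, which favours peptides for antigen presentation. The transcription factor NFE2L1 is known to raise proteasome genes when proteasome activity is low.

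The libraries held 38133894 counts with DMSO and 40791119 with homochlorcyclizine. Hepatocyte and hepatoma markers were abundant, as in ALB at 5244 CPM (counts relative to the scaled library size) with DMSO and 5059 CPM with the compound. Leukocytes carry immunoproteasome at rest, so their markers were read too. The leukocyte list summed to 460 CPM with DMSO and 544 CPM with homochlorcyclizine, of which LYZ made 446 and 527 CPM. The defining leukocyte gene PTPRC had 2 and 6 counts, and HLA-DRA had 0 in both libraries.

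Transcripts of the 26S particle were lower with homochlorcyclizine without exception among its 31 subunits that the pattern covers. Ratios of homochlorcyclizine to DMSO ran from 0.573 for PSMC1 to 0.875 for PSMD8, and every counting interval lay below 1. Among the 12353 genes that averaged 1 CPM or more, 51.1% had a ratio below 1 and 40.0% had an interval below 1. The decreases were moderate. No member was 2-fold lower, against 5.10% of all genes, while 13 of the 31 subunits were at least 1.5-fold lower (10 with upper-quartile scaling), against 14.1% of all genes. The median log2 ratio of the 31 subunits was -0.53, where that of all genes was -0.01. Of the 48 members, 17 share exon bases with another protein-coding gene and 12 have named pseudogenes in GENCODE release 29, so reads may be shared. Without these, 17 subunits remained, all of them lower and 8 at least 1.5-fold lower. In bulk RNA, fewer expressing cells and less RNA per cell cannot be told apart.

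The subunits lay close together. The standard deviation of their log2 ratios, taken over genes and not over replicates, was 0.16. Over the 4283 genes that share their range of mean level, 51.8 to 502 CPM, it was 0.54. Of those genes, 11.1% were at least 1.5-fold lower. Among the companion lists described below, the COP9 signalosome had a spread of 0.16 and proteasome parts with other names one of 0.17. The spread was wider in CCT and prefoldin (0.28), bound enzymes and shuttles (0.40), antigen presentation (0.42) and NFE2L1 with its partners (0.71). A narrow spread was thus not particular to these subunits, and no difference in spread was tested. In all, the 45 members past the 1 CPM filter had a median log2 ratio of -0.48. Of these, 41 had a ratio below 1, 39 had an interval below 1, 14 were at least 1.5-fold lower, and 0 were higher by that factor, as 14.1% of all genes were. An interval above 1 was found for 2 members, PSMB10 and PSME1, against 37.8% of all genes. The 48 genes together took 0.943% of all counts with DMSO and 0.671% with homochlorcyclizine.

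**Figure D1:**
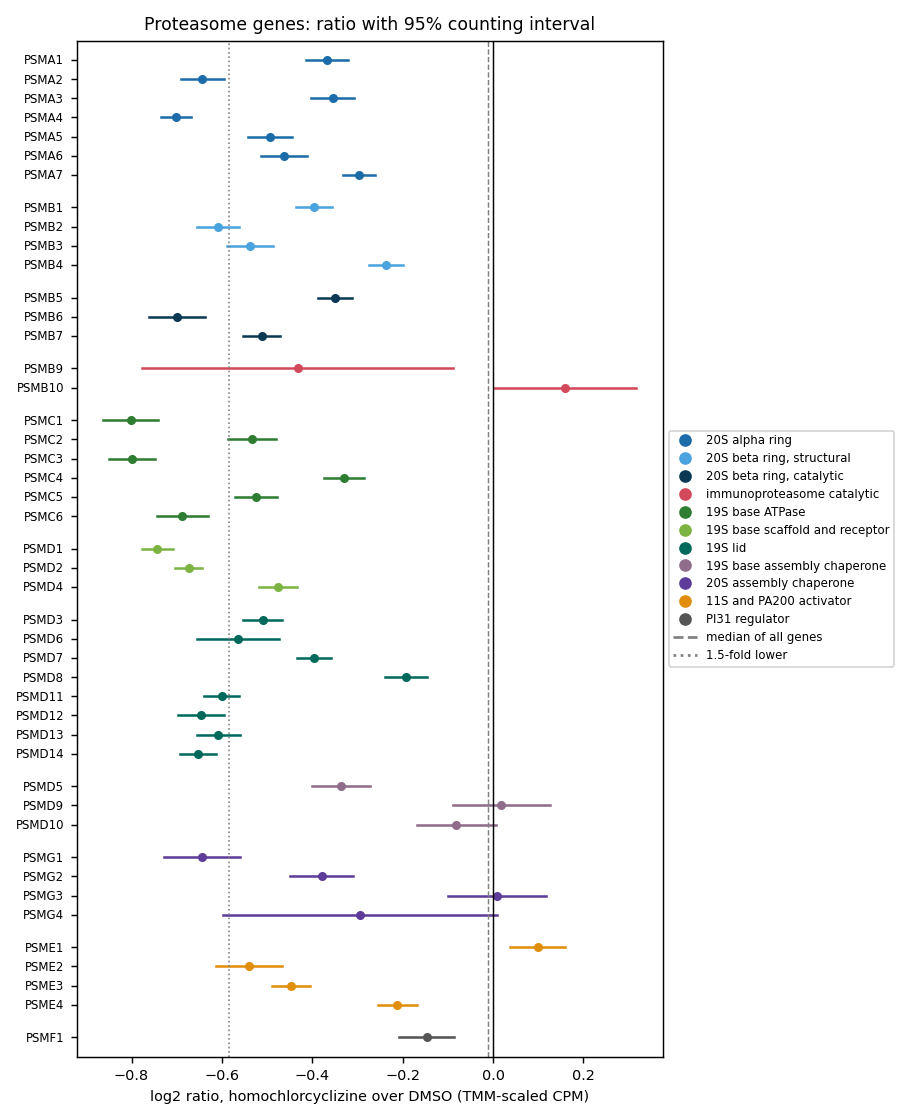
Log2 ratio of homochlorcyclizine to DMSO (x axis) for the 45 members past the filter, grouped by role, with points for the ratio and lines for the 95% counting interval. All 31 subunits of the 20S core and 19S cap sit left of 0, and the members at or right of 0 are PSMB10, PSMD9, PSMG3 and PSME1.

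**Figure D2:**
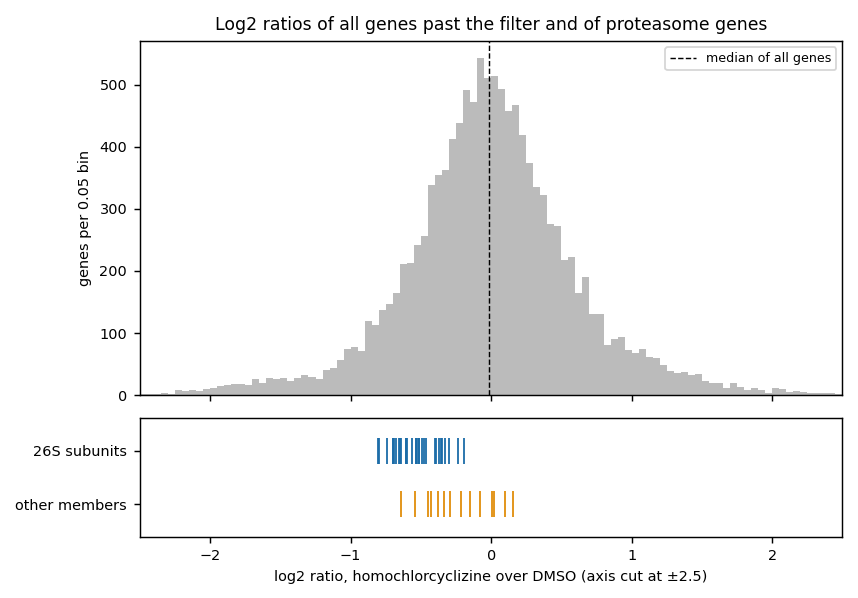
Histogram of the log2 ratios of all genes past the filter (top, genes per bin of 0.05), with each proteasome gene as a tick (bottom). The 31 subunits of the 26S particle lie between -0.80 and -0.19, while the other 14 members spread from -0.64 to 0.16.

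Promoter sequences are shown for 5 members that share 1 spelling of an interferon response element, a set chosen after the matches were seen, and for 2 subunits with an antioxidant response core. RefSeq on GRCh38.p14, the assembly also called hg38, gave 51 promoter windows for 42 of the 48 members, each from 250 bases before to 50 bases after a transcript start. PSMA7, PSMB1, PSMB6, PSMB7, PSMD4 and PSMG3 have no entry. On both strands, 3 motifs were searched. They were the interferon response element, written as GAAA, any 2 bases and GAAA again, TGACNNNGC, the core of the antioxidant response element that NFE2L1 and NFE2L2 bind with small MAF proteins, and CCAAT, the box of the factor NF-Y.

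The interferon form was found in 7 of 42 members (16.7%), in 3.57% of all 35116 promoter windows and in 3.81% of the 10134 genes past the filter that have a window. In 5 members the match had the same letters, GAAAGCGAAA on one strand or the other, a spelling singled out after the matches were seen. These were PSMB8, PSMB10, PSMG4, PSME1 and PSME2, none of them a standard 26S subunit, and the spelling is held by 0.0997% of all promoter windows and 0.207% of the 10134 genes past the filter that have a window. PSMA4 and PSMB4 held other spellings. The windows of the 5 are given 5′ to 3′ on the gene's strand, with the interferon form in capitals, and in PSME1 and PSME2 also the antioxidant response core, which does not overlap it. Those of PSMB8 and PSMG4 belong to inner transcript starts. They lie inside the RefSeq gene spans of 32840717 to 32844679 and 3254404 to 3268049.
PSMB8 (chr6:32843998-32844297, minus strand): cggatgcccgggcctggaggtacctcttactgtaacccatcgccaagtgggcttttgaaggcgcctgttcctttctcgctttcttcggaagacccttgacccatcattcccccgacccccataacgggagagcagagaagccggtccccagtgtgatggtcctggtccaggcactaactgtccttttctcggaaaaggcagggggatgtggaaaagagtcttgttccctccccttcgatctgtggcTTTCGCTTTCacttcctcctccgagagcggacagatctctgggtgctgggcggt
PSMB10 (chr16:67936801-67937100, minus strand): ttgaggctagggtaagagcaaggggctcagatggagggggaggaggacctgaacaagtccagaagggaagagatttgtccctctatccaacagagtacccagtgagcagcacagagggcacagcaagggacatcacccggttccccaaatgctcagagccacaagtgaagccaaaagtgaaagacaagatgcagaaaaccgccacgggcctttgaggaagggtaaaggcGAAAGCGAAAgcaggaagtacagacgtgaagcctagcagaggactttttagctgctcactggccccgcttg
PSMG4 (chr6:3258697-3258996, plus strand): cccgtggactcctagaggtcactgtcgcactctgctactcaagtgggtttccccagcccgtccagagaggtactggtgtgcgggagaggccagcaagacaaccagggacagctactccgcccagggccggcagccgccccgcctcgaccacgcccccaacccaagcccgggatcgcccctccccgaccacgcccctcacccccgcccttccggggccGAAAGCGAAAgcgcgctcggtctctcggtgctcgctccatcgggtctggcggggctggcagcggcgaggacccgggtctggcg
PSME1 (chr14:24135944-24136243, plus strand): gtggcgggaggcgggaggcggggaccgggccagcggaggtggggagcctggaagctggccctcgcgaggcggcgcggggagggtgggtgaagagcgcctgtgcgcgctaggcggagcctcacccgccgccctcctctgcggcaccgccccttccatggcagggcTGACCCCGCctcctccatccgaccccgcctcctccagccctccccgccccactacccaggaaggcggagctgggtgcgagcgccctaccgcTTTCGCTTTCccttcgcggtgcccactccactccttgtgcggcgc
PSME2 (chr14:24146561-24146860, minus strand): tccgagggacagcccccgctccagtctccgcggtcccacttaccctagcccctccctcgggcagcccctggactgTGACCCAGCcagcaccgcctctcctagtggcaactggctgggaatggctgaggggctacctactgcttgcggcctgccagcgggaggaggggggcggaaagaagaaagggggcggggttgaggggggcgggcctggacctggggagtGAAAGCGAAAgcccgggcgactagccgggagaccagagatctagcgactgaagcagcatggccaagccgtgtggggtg

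The 5 genes did not move as 1 group. PSMB8, PSMB10 and PSME1 had ratios of 2.95, 1.12 and 1.07, while PSMG4 and PSME2 had ratios of 0.815 and 0.687. Of those past the 1 CPM filter, PSME1 above 1 and PSME2 below 1 had intervals that excluded 1 under every scaling used. The interval of PSMG4 includes 1, and that of PSMB10 includes 1 when libraries are scaled by total counts. PSMB8 had an interval of 1.22 to 8.18, but only 7 and 22 counts, and failed the filter. A match describes letters in a window and does not show that a factor binds there.

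The antioxidant response core was found in 15 of 42 members (35.7%), in 13.3% of all promoter windows and in 19.4% of the 10134 genes past the filter that have a window. It was held by 7 of 26 standard 26S subunits and by 8 of the 16 other members with a window. PSMD3 of the subunits and PSMD9 of the other members had 2 matches each. Subunits with the core had a median log2 ratio of -0.54 and those without it of -0.56, and the range with it, -0.74 to -0.33, lay inside the range without it, -0.80 to -0.19. The windows of PSMD1, one of the lowest subunits, and PSMB3 serve as examples, with the antioxidant response core in capitals. In PSMB3 the core lies upstream, starting 104 bases before the transcript start, and in PSMD1 it starts at base 40 of the transcript.
PSMD1 (chr2:231056617-231056916, plus strand): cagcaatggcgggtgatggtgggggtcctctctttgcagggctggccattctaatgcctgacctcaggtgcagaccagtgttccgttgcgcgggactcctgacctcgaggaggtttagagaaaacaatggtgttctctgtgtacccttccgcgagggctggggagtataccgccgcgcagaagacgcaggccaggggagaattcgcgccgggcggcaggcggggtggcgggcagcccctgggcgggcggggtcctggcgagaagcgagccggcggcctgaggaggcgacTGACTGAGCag
PSMB3 (chr17:38752491-38752790, plus strand): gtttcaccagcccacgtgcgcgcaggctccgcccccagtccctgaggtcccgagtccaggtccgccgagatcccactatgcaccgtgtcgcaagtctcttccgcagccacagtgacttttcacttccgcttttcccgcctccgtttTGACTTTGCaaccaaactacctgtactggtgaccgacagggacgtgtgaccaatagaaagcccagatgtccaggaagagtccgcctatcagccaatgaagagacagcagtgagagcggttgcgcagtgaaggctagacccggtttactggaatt

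CCAAT was found in 20 of 42 members (47.6%). It was in 34.6% of all promoter windows and in 43.3% of the genes past the filter that have a window. It was held by 15 of 26 standard 26S subunits (57.7%) and by 5 of the 16 other members with a window. Median log2 ratios were -0.53 for the 15 subunits with it and -0.61 for the 11 without it.

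The 7 alpha subunits form the outer rings of the 20S core, whose gate opens when a cap docks. All 7 were lower, and 2 by at least 1.5-fold. The ring's median log2 ratio was -0.46. PSMA4 had 17341 counts with DMSO and 11359 with homochlorcyclizine, or 454 and 279 CPM, a ratio of 0.615 (0.600 to 0.630). PSMA2 was at 227 and 146 CPM, a ratio of 0.640 (0.619 to 0.662). These were the lowest of the ring. PSMA7 was at 372 and 303 CPM with a ratio of 0.814 (0.795 to 0.834), and PSMA3 at 203 and 158 CPM with a ratio of 0.782 (0.756 to 0.808). PSMA1, PSMA5 and PSMA6 lay between them at 0.775, 0.710 and 0.726. No count fell on PSMA8, the alpha subunit of male germ cells. A count of 0 leaves room for a level of 3 counts, or 0.0785 CPM with DMSO and 0.0737 CPM with the compound.

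In the beta rings, 4 subunits are structural in mammals and 3 cut protein. Among the structural ones PSMB2 was lowest, at 237 CPM with DMSO and 155 CPM with homochlorcyclizine, a ratio of 0.656 (0.635 to 0.678). PSMB4 was highest at 322 and 273 CPM, a ratio of 0.849 (0.827 to 0.871). PSMB3 was at 189 and 130 CPM, a ratio of 0.689 (0.665 to 0.714), and PSMB1 at 303 and 231 CPM, a ratio of 0.760 (0.740 to 0.781). All 4 were thus lower, and their intervals overlapped for PSMB2 and PSMB3 only.

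The 3 standard cutting subunits were lower to different degrees. PSMB6, the caspase-like site, had 5317 counts with DMSO and 3490 with homochlorcyclizine, 139 and 85.7 CPM, and a ratio of 0.616 (0.590 to 0.643). PSMB7, the trypsin-like site, was at 287 and 202 CPM with a ratio of 0.701 (0.681 to 0.721). PSMB5, the chymotrypsin-like site and the target of bortezomib, was at 339 and 266 CPM with a ratio of 0.785 (0.765 to 0.805). The intervals of the 3 ratios do not overlap, which speaks of counting error only.

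The interferon-inducible cutting subunits were scarce in these cells and differed in direction among themselves. PSMB10, which replaces PSMB7 (chromosome 16, 67934506 to 67936850), had 608 counts with DMSO and 723 with homochlorcyclizine, 15.9 and 17.8 CPM. Its ratio was 1.12, with an interval of 1.00 to 1.25 whose lower bound is just above 1 and fell below it when libraries were scaled by total counts. In the GENCODE models PSMB10 shares 34.8% of its exon bases with a read-through gene on its strand. PSMB9, which replaces PSMB6, was at 4.24 and 3.14 CPM with a ratio of 0.742 (0.584 to 0.941). PSMB8, which replaces PSMB5, had 7 and 22 counts, under the 1 CPM filter, with a ratio of 2.95 and a wide interval of 1.22 to 8.18. PSMB10 and PSMB8 were therefore higher and PSMB9 lower. PSMB11, the cutting subunit of the thymus, likewise had 0 counts.

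Per gene length, on the scale of the deposited FPKM, the 3 inducible subunits made up 2.56% of the inducible and standard sum with DMSO and 3.71% with homochlorcyclizine. On raw counts PSMB10 had a share of 5.24% (4.85% to 5.67%) of its pair with DMSO and 8.10% (7.54% to 8.68%) with homochlorcyclizine. The share of PSMB9 was 2.96% (2.52% to 3.44%) and 3.54% (2.96% to 4.19%), with overlapping intervals. That of PSMB8 was 0.0540% (0.0217% to 0.111%) and 0.203% (0.127% to 0.307%). The intervals are exact Clopper-Pearson intervals. All 3 shares were higher with homochlorcyclizine, also for PSMB9, whose own level was lower. The FPKM of the 3 inducible subunits summed to 20.6 with DMSO and 21.7 with homochlorcyclizine. That of the 3 standard subunits summed to 787 and 563, so the summed share differed mainly through the standard subunits. The share of PSMB8, on few counts, differed mainly through PSMB8 itself, with a ratio of 2.95 against 0.785 for PSMB5.

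**Figure D3:**
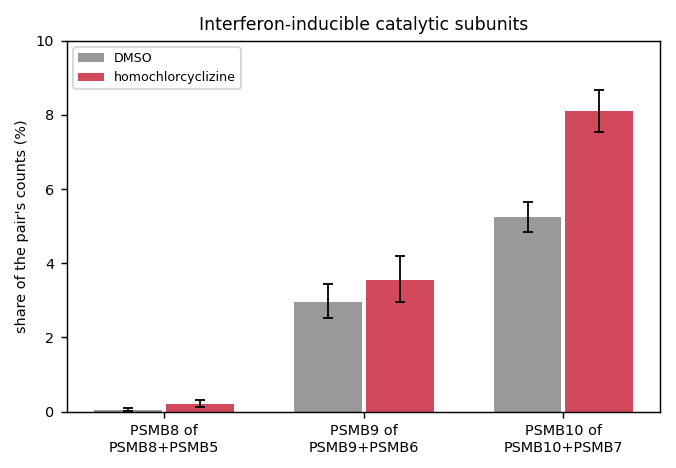
Share of each interferon-inducible subunit in the counts of its pair with the standard subunit (y axis, percent), for DMSO (grey) and homochlorcyclizine (red), 1 library each, with 95% Clopper-Pearson intervals. The share of PSMB10 is 5.24% and 8.10% without overlap of the intervals, and those of PSMB9 overlap.

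PSMB8 and PSMB9 lie in the major histocompatibility complex on chromosome 6, with TAP1, a subunit of the peptide transporter, between them, 529 bases from PSMB8 and 487 from PSMB9. TAP1 was 1.71-fold higher, at 16.7 against 9.79 CPM, so the direction differed between TAP1 and PSMB9. These distances are on the RefSeq coordinates, which leave 9512 bases between PSMB8 and PSMB9. The GENCODE models differ, and there PSMB8 and PSMB9 share 139 exon bases on opposite strands.

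The ATPases PSMC1 to PSMC6 form the motor ring of the cap. Their median log2 ratio was -0.61, and 3 of 6 were at least 1.5-fold lower. PSMC1 (chromosome 14, 90256553 to 90275429) had the lowest ratio of all members, with 5888 counts and 3597 counts, 154 and 88.4 CPM, a ratio of 0.573 (0.550 to 0.598). In the GENCODE release 29 models 75.8% of the PSMC1 exon bases are shared with NRDE2 on the opposite strand, and PSMC1 has 13 named pseudogenes. NRDE2 itself had 638 and 557 counts and a ratio of 0.820.

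PSMC3 (chromosome 11, 47418775 to 47426439), which shares exon bases with no other protein-coding gene and has no named pseudogene, was almost as low as PSMC1. It was at 212 CPM with DMSO and 122 CPM with homochlorcyclizine, a ratio of 0.574 (0.554 to 0.595). PSMC6 had a ratio of 0.621, PSMC2 one of 0.691 and PSMC5 one of 0.695 (0.673 to 0.718). PSMC4 was highest of the ring, at 239 and 190 CPM with a ratio of 0.796 (0.772 to 0.820). The lowest ATPases thus lay at the bottom of the particle's range and PSMC4 near its top.

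Besides the ATPases the base of the cap holds the scaffolds PSMD1 and PSMD2, which dock ubiquitin receptors and shuttle proteins, and the receptor PSMD4, which binds ubiquitin chains. PSMD1 (chromosome 2, 231056867 to 231172827) had 17704 counts with DMSO and 11268 with homochlorcyclizine, 463 and 277 CPM, a ratio of 0.597 (0.583 to 0.612). PSMD2, the member with the most counts, had 23571 and 15739, or 617 and 387 CPM, a ratio of 0.627 (0.614 to 0.640). PSMD4 was at 277 and 200 CPM, a ratio of 0.719 (0.699 to 0.741). The 2 scaffolds were thus lower than the receptor, and their median role value of -0.67 was the lowest of all roles.

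The lid removes ubiquitin chains before the protein enters the core. All 8 lid genes were lower, 4 of them at least 1.5-fold, and the median was -0.58 on the log2 scale. With upper-quartile scaling 2 were at least 1.5-fold lower, as PSMD11 and PSMD13 no longer were. PSMD14, the deubiquitinase, was at 319 CPM with DMSO and 203 CPM with homochlorcyclizine, a ratio of 0.636 (0.618 to 0.654). Its direct partner PSMD7 was at 326 and 247 CPM, with a ratio of 0.760 (0.740 to 0.780). PSMD12 had a ratio of 0.639 (0.617 to 0.662). PSMD8 was at 203 and 178 CPM, and its ratio of 0.875 (0.847 to 0.903) was the highest of the 31 subunits. PSMD3, PSMD6, PSMD11 and PSMD13 ran from 0.656 to 0.702.

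Levels per gene length kept their order between the libraries for the most abundant subunits. On the FPKM scale PSMA7 was highest with 387 and 314, followed by PSMB4 (351 and 297), PSMB1 (341 and 258), PSMB5 (327 and 256), PSMB7 and PSMB3 at the same ranks in both libraries. PSMC1 was lowest with 34.8 and 19.9, so the subunits spanned 11.1-fold with DMSO and 15.8-fold with homochlorcyclizine, although the particle holds its subunits in equal number. The length behind each FPKM value, recovered from counts and FPKM, ran from 0.677 kb for PSMB3 to 4.43 kb for PSMC1 among the 31 subunits. Ranks and span depend on these lengths. Without them PSMC1 was not the lowest, at 154 and 88.4 CPM against 61.8 and 41.8 CPM for PSMD6.

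**Figure D4:**
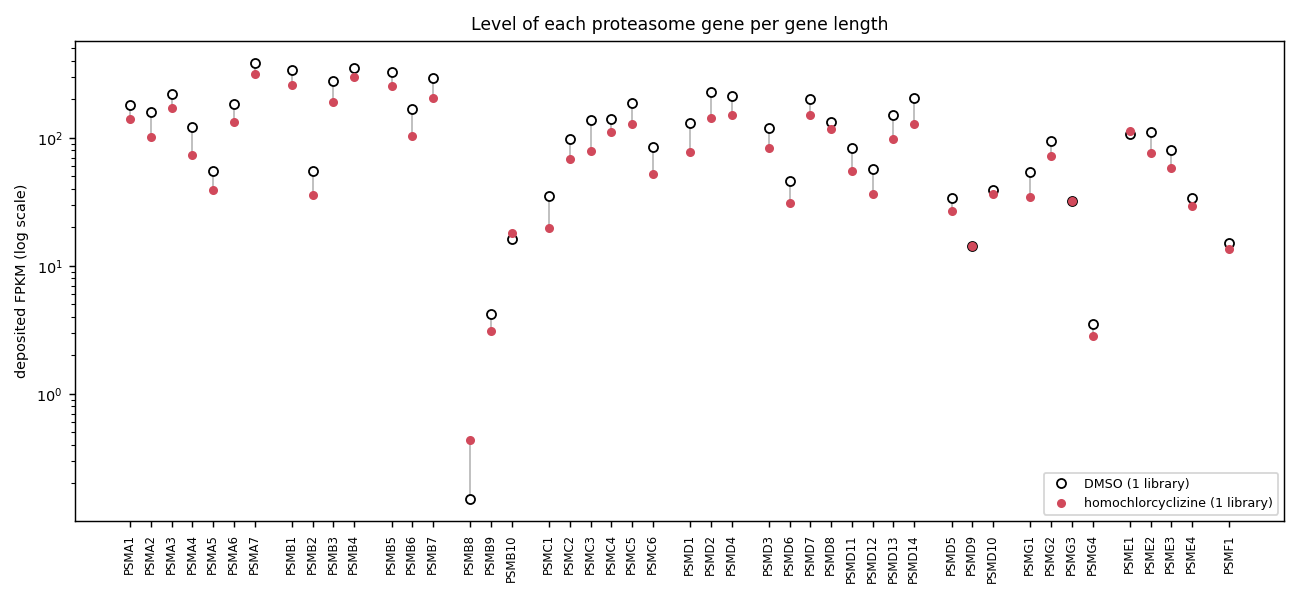
Deposited FPKM (y axis, log scale) of the 46 members with counts, with DMSO (open circles) and homochlorcyclizine (red), grouped by role. The standard subunits lie between 19.9 and 387, and the interferon-inducible PSMB8, PSMB9 and PSMB10 lie below all of them.

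Dedicated chaperones build the particle and leave it when it is complete, so they are not subunits. Of the 3 that hold the cap base, PSMD9 and PSMD10 had ratios closer to 1 than the ATPases they bind. PSMD9, which binds PSMC3 and PSMC6, had 1381 counts with DMSO and 1490 with homochlorcyclizine, a ratio of 1.01 (0.941 to 1.09). PSMD10, gankyrin, which binds PSMC4, was at 55.6 and 52.6 CPM with a ratio of 0.945 (0.890 to 1.00). Both intervals include 1, while the ATPases named with them lay between 0.574 and 0.796. PSMD5, which binds PSMC2, was lower at 112 and 88.5 CPM, a ratio of 0.792 (0.758 to 0.828). PSMD9 shares exon bases with WDR66 and PSMD10 has 3 named pseudogenes. Without both, the role's median log2 ratio of -0.08 became -0.34, which is PSMD5 alone.

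The core chaperones work in pairs, PSMG1 with PSMG2 and PSMG3 with PSMG4. The first pair was lower, with ratios whose counting intervals do not overlap, while both intervals of the second pair include 1 and overlap. PSMG1 was at 72.8 CPM with DMSO and 46.6 CPM with homochlorcyclizine, a ratio of 0.640 (0.603 to 0.679), the one member outside the 26S particle that was at least 1.5-fold lower. PSMG2 was at 97.1 and 74.7 CPM, a ratio of 0.769 (0.733 to 0.807). PSMG3 was level, at 35.1 and 35.3 CPM with a ratio of 1.01 (0.933 to 1.08), and PSMG4 had 198 and 172 counts with a ratio of 0.815 (0.661 to 1.01). The PSMG4 interval includes 1, and it overlaps those of PSMG1, PSMG2 and PSMG3.

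Activators replace the cap at the ends of the core and open it without ubiquitin. PSME1 and PSME2, both known as interferon-inducible, encode the 2 chains of 1 ring and lie 4402 bases apart on chromosome 14 (24136194 to 24138962 and 24143365 to 24146610). PSME1 was at 106 CPM with DMSO and 114 CPM with homochlorcyclizine, a ratio of 1.07 (1.03 to 1.12), and PSME2 at 94.6 and 65.0 CPM, a ratio of 0.687 (0.654 to 0.723). The partners therefore went in opposite directions. On the FPKM scale they stood at 107 and 111 with DMSO and at 114 and 75.9 with homochlorcyclizine. PSME2 has 2 named pseudogenes and shares 216 exon bases with RNF31, whose part in the result was not tested.

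PSME3, the nuclear activator, was at 267 and 196 CPM, a ratio of 0.734 (0.713 to 0.756). PSME4, the large activator PA200 linked to histone breakdown, was at 246 and 212 CPM, a ratio of 0.864 (0.839 to 0.889). PSMF1, which encodes the core-binding regulator PI31, was at 114 and 103 CPM, a ratio of 0.903 (0.865 to 0.942). As a whole the 14 members outside the 26S particle that passed the filter had a median log2 ratio of -0.25, and 8 had an interval below 1. Their counts summed to a ratio of 0.832, and those of the 31 subunits to 0.697. Passing the filter left out PSMA8, PSMB8 and PSMB11.

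Proteasome parts with other names went the same way with smaller differences. Of 7 listed, all had a ratio below 1, 6 had an interval below 1 and the median log2 ratio was -0.37, with 0 past 1.5-fold. The ubiquitin receptor ADRM1 was at 234 CPM with DMSO and 167 CPM with homochlorcyclizine, a ratio of 0.716, the core maturation factor POMP at 175 and 152 CPM, a ratio of 0.870, and the adaptor ECPAS at 175 and 158 CPM, a ratio of 0.903. Of 9 bound enzymes and shuttles, 1 was at least 1.5-fold lower, against 14.1% of all genes, and the median was -0.14. This gene was the deubiquitinase UCHL5, at 80.4 and 43.2 CPM, a ratio of 0.537 (0.507 to 0.570), below every proteasome subunit. The other cap-bound deubiquitinase USP14 had a ratio of 0.857, the shuttle RAD23B one of 0.856 and ZFAND5, which stimulates the particle, one of 1.25.

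Of 12 genes of NFE2L1, its activation and its partners, 4 were at least 1.5-fold higher and 1 was at least 1.5-fold lower. Of all genes, 14.1% were higher and 14.1% lower by that factor. NFE2L1 was at 304 CPM with DMSO and 561 CPM with homochlorcyclizine, a ratio of 1.84 (1.80 to 1.89). The small MAF genes MAFF, MAFG and MAFK had ratios of 2.47, 2.14 and 2.65, the 3 genes of the list past 2-fold, where 5.81% of all genes were 2-fold higher. DDI2, the protease that cuts NFE2L1 into its active form, was lower at 110 and 71.8 CPM, a ratio of 0.654 (0.623 to 0.685), which was no longer 1.5-fold with upper-quartile scaling. The extraction ATPase VCP had a ratio of 0.733, NFE2L2 one of 0.959 and NPLOC4 one of 0.937. The mRNA of NFE2L1 and those of the 26S subunits thus differed in opposite directions.

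Of 14 genes of antigen presentation and interferon response, 12 passed the filter, 6 were past 1.5-fold upward, against 14.1% of all genes, and none downward, and the median log2 ratio was 0.62. NLRC5, an activator of class I genes, was at 1.75 and 4.67 CPM, a ratio of 2.66 (2.00 to 3.57). HLA-E and TAPBP had ratios of 1.95 and 1.89, TAP1 one of 1.71, and the interferon factors IRF9 and IRF1 had ratios of 1.69 and 1.59. B2M, ERAP1 and STAT2, the most abundant others, had ratios of 1.48, 1.10 and 1.35. TAP2, which forms the peptide transporter with TAP1, was at 30.6 and 27.5 CPM with a ratio of 0.899 (0.828 to 0.977), the one gene of the list with an interval below 1.

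Of the other assemblies read for comparison, the COP9 signalosome is built like the lid. All 10 of its genes were lower, 3 at least 1.5-fold, against 14.1% of all genes, with a median log2 ratio of -0.42 and the lowest ratio, 0.597, in COPS3. With upper-quartile scaling 1 of the 10 was at least 1.5-fold lower, against 1597 of the 12353 genes, a share no higher than that of all genes. The CCT chaperonin and prefoldin, separate complexes that fold actin and tubulin, were read as a single list. Of its 14 genes, 13 were under 1, 12 had an interval below 1 and 7 were at least 1.5-fold lower, against 14.1% of all genes. The median was -0.56, and the genes whose interval includes 1 belong to prefoldin. Lower transcripts in all listed genes of a complex were thus seen outside the proteasome too, in the COP9 signalosome and CCT. No difference between the complexes was tested.

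**Figure D5:**
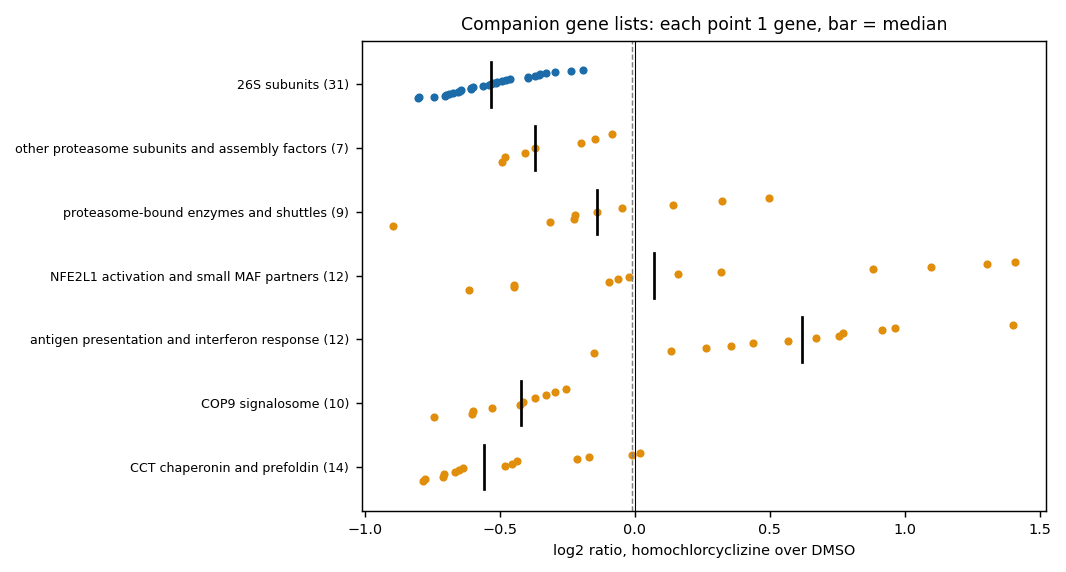
Log2 ratio of homochlorcyclizine to DMSO (x axis) for each gene of the 31 standard 26S subunits (blue) and of 6 companion lists (orange), with black bars for medians, a dashed line for the median of all genes and points staggered vertically only to separate them. The 26S subunits all lie left of 0, whereas the antigen presentation list has its median at 0.62.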

How the data were processed

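The authors deposited raw counts per gene for both libraries and, per library, FPKM values, which divide counts by gene length and library total. The genome build was hg38, per the submitters' processing notes. For the aligner, counter, strand setting and annotation the sources used here name nothing. Reads of overlapping genes or pseudogenes may therefore be shared. Gene models came from GENCODE release 29, coordinates and promoters from RefSeq on GRCh38.p14.

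Library sizes were scaled with TMM factors (edgeR 4.0.16, R 4.3.3), and DESeq2 1.42.0 gave alternative size factors. Ratios, log2 ratios (prior count of 1) and exact Clopper-Pearson intervals, conditional on each gene's summed count, came from scipy 1.17.1, pandas 2.3.3 and numpy 2.4.6 under Python 3.11.15. Copies made by PCR are not independent molecules, and intervals and floors cover only counting error. A gene counted as changed at 2-fold or 1.5-fold when its interval also excluded 1, among genes averaging 1 CPM or more. These steps were tested on simulated counts with counting error only, which cannot test the spread between cultures, PCR copies or shared reads. Replication is absent, so no test between conditions was made.

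Members and lists were chosen with earlier results of these data known. All members could be named, with full values for the 2 highest and 2 lowest of each role, every member of roles with at most 4, and of the lists each gene past 1.5-fold and up to 3 more by mean CPM, with ranges for the COP9 signalosome and CCT. NRDE2 was chosen after its values were seen, and TAP2 was named outside these rules. Some listed companion genes are not reported here.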

Additional observations from a re-analysis of the deposited data

How the results depend on the processing

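The number of members with an interval below 1 (39), the number below a ratio of 1 (41) and the absence of a 2-fold lower member held under scaling by total counts, DESeq2 size factors, upper-quartile factors, a prior count of 5 and the deposited FPKM ratio. A filter of 5 CPM left 38 members with an interval below 1 and 39 below a ratio of 1. Across the scalings the median of the 26S subunits ran from -0.54 to -0.50. With upper-quartile factors 11 members in place of 14 were at least 1.5-fold lower. Scaling by total counts or by FPKM left 1 member in place of 2 with an interval above 1, since PSMB10 then included 1. Without a filter PSMB8 entered as 1 member at least 2-fold higher. Of 230 recomputed log2 ratios of single members none changed sign with an interval that excluded 1. An alternative chosen after seeing the data left out members that share exon bases with another protein-coding gene or have named pseudogenes. It kept 21 members with a median of -0.53, of which 20 were below 1 with intervals below 1, 9 were at least 1.5-fold lower and 0 had an interval above 1. Of these, 17 were 26S subunits, all below 1 and 8 of them 1.5-fold lower, and 3 of the other members were below 1. These counts are smaller because fewer genes were counted. No paired analysis was possible because each condition has 1 library and the labels give no replicate numbers. At 1 library each, the spread between cultures was not measured.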
